A study of Mus musculus with 6 samples.

Results

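Chemokine receptors are surface receptors of the G protein-coupled kind that steer T cells towards the tissue that makes their chemokine. Activated CD4+ T cells exchange one set for another: CCR7 holds a cell in the T cell zone of the spleen or lymph node, CXCR5 draws it into the B cell follicle, and CXCR3, CXCR6, CCR2 and CX3CR1 are known from effector cells that enter inflamed tissue. CCR4 and CCR8 are best known from Th2 cells, regulatory T cells and cells that home to skin, and CXCR4 is carried by most lymphocytes.

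The 9 genes Cxcr3, Cxcr4, Cxcr5, Cxcr6, Ccr2, Ccr4, Ccr7, Ccr8 and Cx3cr1 were taken by name from a table of 15445 genes, and all 9 passed the filter on low counts that left 12987 genes for testing. The cells were transgenic, monoclonal CD4+ T cells of C57BL/6 mice, sorted from spleen on CD4, Thy1.1 and CD25 at day 5 of an infection with lymphocytic choriomeningitis virus (LCMV). There were 3 CD25-high and 3 CD25-low libraries, numbered 1 to 3 in each group, so that infection, day, strain and transgenic receptor were common to both groups. The labels name neither the receptor nor any difference in treatment between the groups, and no uninfected or naive sample was analysed here. They do not say either whether each library is an animal, a pool or a repeat, so the p-values measure only how far these libraries spread, part of which may be technical.

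Total counts were 16787233 to 18847288 in CD25-high libraries and 18810599 to 23567066 in CD25-low libraries. Levels are given as CPM, counts in a total of 1e6 reads on TMM-scaled library sizes. Il2ra, the gene for CD25, had 432 to 1540 CPM in CD25-high libraries, against 20.7 to 35.7 CPM in CD25-low ones, which is the direction of the sort. All 8 listed CD4 T cell markers were measured, with summed levels of 3260 to 3310 CPM in CD25-high, against 3280 to 4260 CPM in CD25-low libraries. Of these, Cd3d and Cd3g, chains of the T cell receptor complex, fell by 1.01 and 0.86 on the log2 scale with the replicate number as a block (edgeR adjusted p 0.0134 and 0.0135) and were not called without it (adjusted p 0.204 and 0.279). Of 7 listed neutrophil markers 2 had a row, summing to at most 0.106 CPM in CD25-high, against 1.19 CPM in CD25-low libraries. Libraries with the same number deviated together from their group means, and the libraries numbered 1 stood apart from the others, so each receptor is given library by library. An edgeR fit without the number is the main test, and the fit with the number as a block is given where it changes the call.

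Without the block, 0 of the 9 receptors passed an adjusted p of 0.05 in edgeR's quasi-likelihood test, where 0.655% of all tested genes did. In the same test 2 receptors had an unadjusted p below 0.05 (Cxcr5 and Ccr4), as had 1439 of the 12987 tested genes. With the block 1 receptor, Cxcr5, passed, against 4.63% of all genes. limma voom called 1 (Cxcr5) against 0.724% of genes, and DESeq2 called 0 against 2.7%. Log2 fold changes of CD25-high over CD25-low were positive for 3 and negative for 6 receptors, with a median of -0.10 beside 0.01 over all tested genes. Only Cxcr5 had levels that did not overlap between the groups, which was the case for 16.9% of tested genes.

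**Figure D1:**
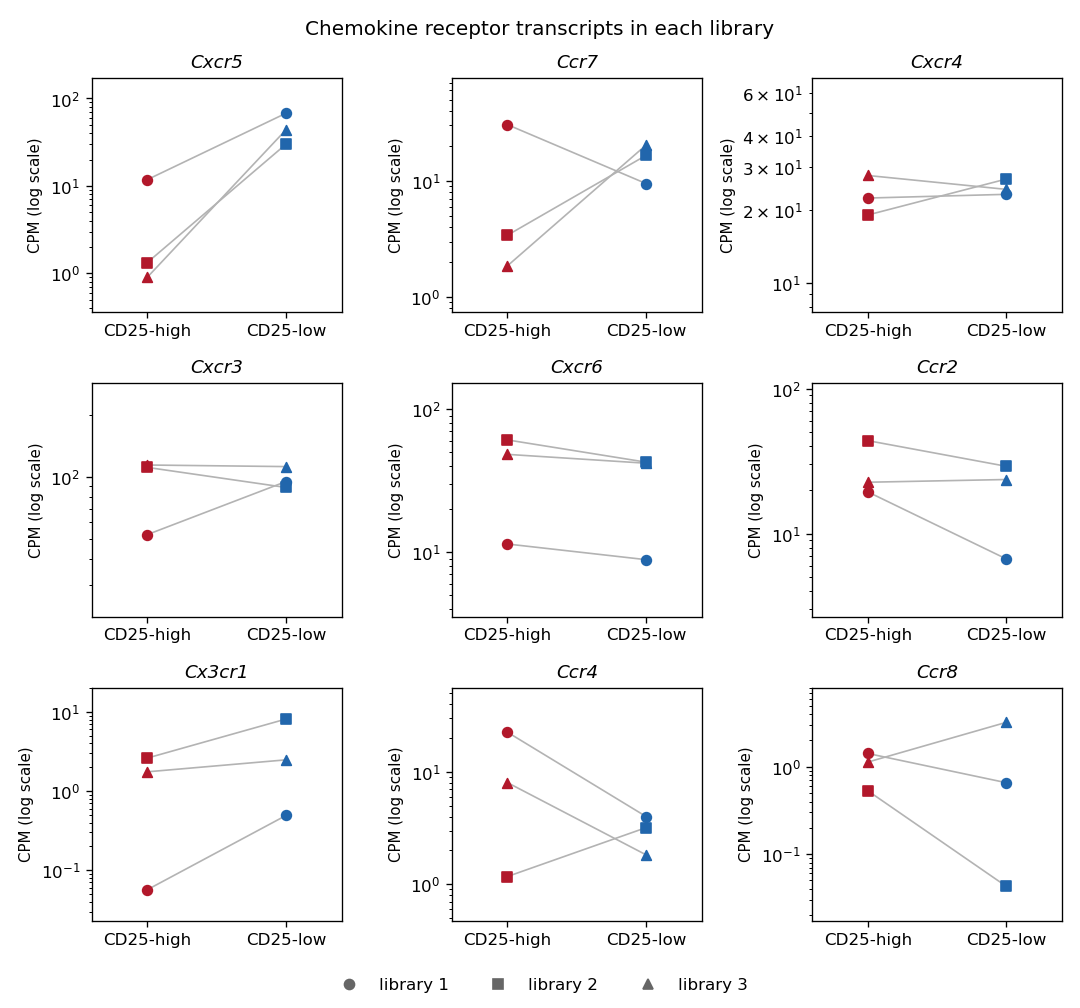
Level of each receptor transcript in CPM (vertical axes, log scale) in CD25-high (left, red) and CD25-low (right, blue) libraries; circles, squares and triangles are libraries 1, 2 and 3, and lines join libraries of the same number. Cxcr5 is lower in CD25-high along all 3 lines, Cxcr4 varies least, and for Cxcr6, Ccr2 and Cx3cr1 both circles lie below the other 4 points.

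Cxcr5 (ENSMUSG00000047880; minus strand of chromosome 9, 44511787 to 44561877, mm10) encodes the receptor for CXCL13, the chemokine of B cell follicles, and is a defining gene of follicular helper T cells. It had 11.8, 1.33 and 0.902 CPM in libraries 1, 2 and 3 of CD25-high cells, against 67.9, 30.1 and 44.0 CPM in libraries 1, 2 and 3 of CD25-low cells. Every CD25-high library was below every CD25-low library, and library 1 was the highest of its group on both sides. These levels rest on 209, 25 and 16 reads in CD25-high, against 1242, 706 and 1065 reads in CD25-low libraries.

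The log2 fold change of Cxcr5 was -3.34 ± 0.81 (SE; 95% interval -5.14 to -1.53), with an edgeR adjusted p of 0.127. With the replicate number as a block Cxcr5 fell by 4.03 ± 0.47 (SE; interval -5.04 to -3.02) on the log2 scale, at an adjusted p of 0.000269. The within-number differences were -2.52, -4.50 and -5.61 for numbers 1, 2 and 3, so the direction was shared and the size was smallest in number 1. Without CD25-high library 1, and without a block, the edgeR estimate was -5.39 at an adjusted p of 0.00064, where 0.962% of genes passed. In limma voom it was -4.18 (adjusted p 0.0317).

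Follicular B cells also carry CXCR5, so the B cell markers are given beside it. Of 10 listed markers 5 had a row, and their summed level was 18.1, 9.37 and 3.95 CPM in libraries 1, 2 and 3 of CD25-high cells, against 18.1, 12.6 and 13.4 CPM in libraries 1, 2 and 3 of CD25-low cells. In both groups library 1 had the highest sum, and it was also highest for Cxcr5, but most single markers did not have this order. Cd22, a lectin of B cells, had 1.80 to 10.1 CPM in CD25-high, against 7.71 to 15.3 CPM in CD25-low libraries, where it made up most of the sum. Cd79b, a chain of the B cell receptor, was at most 1.41 CPM in CD25-high, against 1.11 CPM in CD25-low libraries, and Ebf1, a transcription factor of B cells, was at most 0.395 CPM in CD25-high, against 0.703 CPM in CD25-low libraries. Fcer2a, the CD23 gene, had 5.61, 0.479 and 0.0564 CPM in libraries 1, 2 and 3 of CD25-high cells, against 0.656, 0.170 and 1.70 CPM in libraries 1, 2 and 3 of CD25-low cells. Cr2, a complement receptor gene, had 2.04, 4.90 and 0.282 CPM in CD25-high, against 1.80, 3.49 and 2.61 CPM in CD25-low libraries. Of the 5 markers only Cd22 was highest in library 1 of both groups. Fcer2a was highest there in CD25-high cells alone. In both groups Cr2 was highest in library 2 and Ebf1 in library 3, and Cd79b was highest in CD25-high library 3 and CD25-low library 2. The part of these markers in the Cxcr5 level was not tested. In a bulk sample, fewer cells that carry a transcript cannot be told apart from less of the transcript in each cell.

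Of the Cxcr5 exons, 110 bases are shared with Bcl9l on the opposite strand, and whether the counting used strand is not given in the sources used here. Bcl9l had 20.0, 38.0 and 36.2 CPM in CD25-high, against 17.1, 38.5 and 45.6 CPM in CD25-low libraries, with a log2 fold change of -0.11 ± 0.38 (SE; edgeR adjusted p 0.948). Its levels overlapped between the groups, unlike those of Cxcr5.

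**Figure D2:**
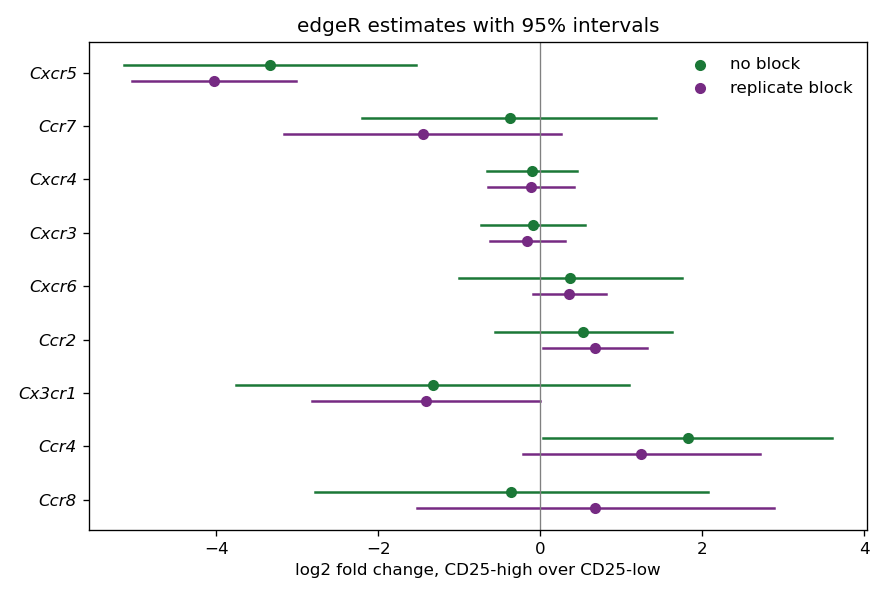
Log2 fold change of each receptor, CD25-high over CD25-low (horizontal axis), from edgeR without a block (green) and with the replicate number as a block (purple); points are estimates and lines 95% intervals. Cxcr5 lies left of 0 with either fit, the lines of Cxcr3 and Cxcr4 are short and cross 0, and those of Ccr4, Ccr7, Ccr8 and Cx3cr1 are long. Lines just clear of 0 are those of Ccr4 without the block and of Ccr2 and Cx3cr1 with it, and none of these was called.

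Ccr7 (ENSMUSG00000037944; minus strand of chromosome 11, 99144196 to 99155077) encodes the receptor for CCL19 and CCL21, which are made in the T cell zone. It had 30.4, 3.41 and 1.86 CPM in libraries 1, 2 and 3 of CD25-high cells, against 9.46, 16.6 and 20.4 CPM in libraries 1, 2 and 3 of CD25-low cells. CD25-high library 1 was the highest of the 6 libraries, while CD25-high libraries 2 and 3 were the lowest. Its log2 fold change was -0.38 ± 0.82 (SE; 95% interval -2.20 to 1.43; edgeR adjusted p 0.909), and within numbers 1, 2 and 3 the difference was 1.68, -2.28 and -3.45.

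The Ccr7 result therefore turned on the libraries numbered 1. With the block over all 6 libraries the log2 fold change was -1.45 ± 0.79 (SE; edgeR adjusted p 0.369). Without both libraries numbered 1 the blocked edgeR estimate was -2.84 (adjusted p 0.00919), where 3.44% of genes passed, and without CD25-high library 1 alone the fit with no block gave -2.55 (adjusted p 0.0443). Mature dendritic cells carry CCR7 as well. Of 8 listed dendritic cell markers 5 had a row, with a summed level of 19.3, 17.7 and 7.78 CPM in libraries 1, 2 and 3 of CD25-high cells, against 7.88 CPM in library 1 and 19.3 CPM in library 3 of CD25-low cells, with library 2 between them. In each group the sum was highest and lowest in the libraries with the most and the least Ccr7. Zbtb46 made up most of it, with 10.5, 12.2 and 4.46 CPM in CD25-high, against 6.34, 12.6 and 14.7 CPM in CD25-low libraries. Cd74 and H2-Ab1 had the library order of Ccr7 in both groups, and Batf3 had it in CD25-high, with 0 reads in CD25-low libraries. Itgax was lowest in CD25-high library 1, where Ccr7 was highest. The part of these dendritic cell markers in the Ccr7 level was not tested.

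Cxcr4 (ENSMUSG00000045382; minus strand of chromosome 1, 128588199 to 128592293) encodes the receptor for CXCL12, a chemokine of bone marrow and lymphoid stroma. It had 22.3, 19.0 and 27.6 CPM in libraries 1, 2 and 3 of CD25-high cells, against 23.1, 26.7 and 24.2 CPM in libraries 1, 2 and 3 of CD25-low cells. The groups overlapped, and the spread over the 6 libraries was the smallest among the 9 receptors. CD25-high cells averaged 23.0 ± 4.38 CPM, and CD25-low cells 24.7 ± 1.88 CPM (SD, 3 libraries a group). A log2 fold change of -0.10 ± 0.25 (SE; edgeR adjusted p 0.921) had a 95% interval of -0.66 to 0.45.

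Cxcr3 (ENSMUSG00000050232; minus strand of chromosome X, 101731535 to 101734269) encodes the receptor for CXCL9 and CXCL10, interferon-induced chemokines, and is characteristic of Th1 cells. It had 52.4, 111 and 114 CPM in libraries 1, 2 and 3 of CD25-high cells, against 94.8, 88.7 and 112 CPM in libraries 1, 2 and 3 of CD25-low cells. CD25-high library 1 was low and the other 5 libraries were alike. The log2 fold change was -0.09 ± 0.29 (SE; 95% interval -0.73 to 0.55; edgeR adjusted p 0.942). It was 0.19 without CD25-high library 1 and 0.01 without CD25-low library 3, so no direction is given.

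Cxcr6 (ENSMUSG00000048521; plus strand of chromosome 9, 123806475 to 123811760) encodes the receptor for CXCL16 and is known from effector and tissue-resident T cells. It had 11.4, 60.8 and 48.2 CPM in libraries 1, 2 and 3 of CD25-high cells, against 8.86, 42.5 and 41.8 CPM in libraries 1, 2 and 3 of CD25-low cells. Both libraries numbered 1 were far below the other 4, and the CD25-high library was the higher one within every number, by 0.36, 0.52 and 0.21 on the log2 scale. The edgeR log2 fold change was 0.37 ± 0.62 (SE; 95% interval -1.01 to 1.75) without the block, at an adjusted p of 0.881. With the block it was 0.36 ± 0.21 (SE; interval -0.09 to 0.81; adjusted p 0.398), and it was not called in either fit.

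Ccr2 (ENSMUSG00000049103; plus strand of chromosome 9, 124101950 to 124113557) encodes the receptor for CCL2, which recruits monocytes and effector T cells to inflamed tissue. It had 19.4, 43.8 and 22.6 CPM in libraries 1, 2 and 3 of CD25-high cells, against 6.67, 29.1 and 23.6 CPM in libraries 1, 2 and 3 of CD25-low cells. The groups overlapped, and both libraries numbered 1 lay below all others, with CD25-low library 1 the lowest. On the log2 scale the fold change was 0.53 ± 0.49 (SE; 95% interval -0.56 to 1.62; edgeR adjusted p 0.76). With the block it was 0.67 ± 0.30 (SE), at an adjusted p of 0.254, and without a block it was 0.10 to 0.91 with 1 library left out.

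Cx3cr1 (ENSMUSG00000052336; minus strand of chromosome 9, 119901616 to 120069879) encodes the receptor for fractalkine and is known from cytotoxic effector T cells and from monocytes. It had 0.0567, 2.61 and 1.75 CPM in libraries 1, 2 and 3 of CD25-high cells, against 0.492, 8.13 and 2.48 CPM in libraries 1, 2 and 3 of CD25-low cells. The CD25-high library was the lower one within each number, although the groups overlapped, and both libraries numbered 1 were lowest. With only 1, 49 and 31 reads in CD25-high, against 9, 191 and 60 reads in CD25-low libraries, the log2 fold change of -1.33 ± 1.09 (SE; edgeR adjusted p 0.718) had a 95% interval of -3.76 to 1.10. With the block it was -1.41 ± 0.65 (SE; interval -2.82 to -0.01; edgeR adjusted p 0.274). The fit with no block gave -0.02 without CD25-low library 2, -0.77 without CD25-high library 1 and -2.03 without CD25-high library 2. The size of the Cx3cr1 value thus rested on single libraries. The gene shares 78 exonic bases with Gm33858 on the opposite strand, which was not analysed here.

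Monocytes carry CCR2 and CX3CR1, so their markers are given here. Of 9 listed monocyte and macrophage markers 5 had a row, and their summed level was 59.2 to 128 CPM in CD25-high, against 52.7 to 70.6 CPM in CD25-low libraries. Lyz2, the lysozyme gene of myeloid cells, was at most 0.338 CPM in CD25-high, against 0.724 CPM in CD25-low libraries, and Csf1r, the receptor gene for a monocyte growth factor, had 1.52 to 2.89 CPM in CD25-high, against 0.639 to 2.08 CPM in CD25-low libraries. Cd68, a lysosomal protein gene of macrophages, had 2.83 to 7.72 CPM in CD25-high, against 5.2 to 8.56 CPM in CD25-low libraries. Most of the sum was Ly6c2 and Itgam, which activated T cells also express. Itgam had 21.1, 77.2 and 71.6 CPM in CD25-high, against 5.03, 26.3 and 32.1 CPM in CD25-low libraries (log2 fold change with the block 1.57, edgeR adjusted p 0.0013, and 1.42, adjusted p 0.433, without it). The part of these markers in the Ccr2 and Cx3cr1 levels was not tested. NK cells carry CX3CR1 too, and of 6 listed NK cell markers 3 had a row, summing to 5.04 to 20.5 CPM in CD25-high libraries and 5.52 to 11.6 CPM in CD25-low libraries. Klrb1c, the NK1.1 gene, had 0, 0.106 and 0 CPM in CD25-high, against 0.219, 2.09 and 0.786 CPM in CD25-low libraries. It was highest in library 2 of each group, as Cx3cr1 was. Gzma, a granzyme gene, made up most of the sum outside CD25-high library 1 and CD25-low library 1. It was lowest in these 2 libraries, as Cx3cr1 was, and had the library order of Cx3cr1 in both groups. Eomes, the other marker with a row, was highest in the same 2 libraries. It had 4.59, 0.319 and 0.508 CPM in CD25-high, against 2.79, 0.298 and 0.0827 CPM in CD25-low libraries. The part of these NK cell markers in the Cx3cr1 level was not tested.

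Ccr4 (ENSMUSG00000047898; minus strand of chromosome 9, 114490316 to 114504916) encodes the receptor for CCL17 and CCL22. It had 22.5, 1.17 and 8.01 CPM in libraries 1, 2 and 3 of CD25-high cells, against 3.99, 3.19 and 1.82 CPM in libraries 1, 2 and 3 of CD25-low cells. CD25-high libraries 1 and 3 lay above all CD25-low libraries, and CD25-high library 2 lay below them. Its fold change was 1.82 ± 0.81 on the log2 scale (SE; 95% interval 0.03 to 3.60), with an unadjusted p of 0.0469 and an edgeR adjusted p of 0.442. Within numbers 1, 2 and 3 the log2 difference was 2.49, -1.45 and 2.14, and the blocked edgeR estimate over all libraries was 1.24 (adjusted p 0.369). Without both libraries numbered 2 it was 2.31 (edgeR adjusted p 0.00271), where 3.71% of genes passed, but it was 0.41 without number 1 (adjusted p 0.869) and 0.66 without number 3 (adjusted p 0.755). Without CD25-high library 1 the fit with no block gave 0.61 (edgeR adjusted p 0.872), so the size of the Ccr4 value depended on single libraries.

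Ccr8 (ENSMUSG00000042262; plus strand of chromosome 9, 120092114 to 120094906) encodes the receptor for CCL1. It had 1.42, 0.532 and 1.13 CPM in libraries 1, 2 and 3 of CD25-high cells, against 0.656, 0.0426 and 3.23 CPM in libraries 1, 2 and 3 of CD25-low cells, from 1 to 78 reads per library. The 3 CD25-high libraries lay inside the range of the CD25-low libraries. Ccr8 had a log2 fold change of -0.36 ± 1.09 (SE; edgeR adjusted p 0.94) and 0.68 with the block, so no direction is given for it.

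Promoter sequence is shown for 3 receptors with different patterns: Cxcr4, which varied least across libraries, Cxcr6, which varied with the replicate number, and Ccr4, which varied among CD25-high libraries. The letters are RefSeq sequence of GRCm38.p6 upstream of the gene's RefSeq start and outside its annotated exons, on the gene's strand, 5′ to 3′. RefSeq windows matched 7 of the 9 receptors. Capitals mark matches, on either strand, to any of 9 short motifs that were searched.
Cxcr4, chr1:128592300-128592549: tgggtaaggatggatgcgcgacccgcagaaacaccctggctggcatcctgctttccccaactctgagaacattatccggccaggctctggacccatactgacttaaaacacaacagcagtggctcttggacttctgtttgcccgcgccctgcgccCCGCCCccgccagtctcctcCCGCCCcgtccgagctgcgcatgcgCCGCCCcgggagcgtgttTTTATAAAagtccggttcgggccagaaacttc
Cxcr6, chr9:123806227-123806474: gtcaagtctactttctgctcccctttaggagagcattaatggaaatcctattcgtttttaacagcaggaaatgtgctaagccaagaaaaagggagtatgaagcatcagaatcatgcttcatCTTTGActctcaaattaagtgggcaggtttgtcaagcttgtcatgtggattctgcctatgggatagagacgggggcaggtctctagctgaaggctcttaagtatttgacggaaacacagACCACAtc
Ccr4, chr9:114496563-114496794: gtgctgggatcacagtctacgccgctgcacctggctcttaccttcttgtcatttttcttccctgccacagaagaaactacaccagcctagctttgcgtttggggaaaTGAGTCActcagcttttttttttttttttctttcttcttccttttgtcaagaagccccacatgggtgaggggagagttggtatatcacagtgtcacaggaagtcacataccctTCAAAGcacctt

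The Cxcr4 window held 3 GC boxes (searched as GGGCGG), all on the other strand, at positions -95, -75 and -50 from the start. It also held a TATA box (searched as TATAAA) on the gene's strand at -30, with an overlapping match on the other strand at -32. Over 32851 RefSeq windows of 250 bases, 32.7% held a GC box and 12.4% a TATA box. The Cxcr6 window held a TCF/LEF motif (searched as CTTTGA) at -129, which 13.8% of windows hold, and on the other strand a RUNX motif (searched as TGTGGT) at -10, which 14.0% hold. The Ccr4 window held an AP-1 motif (searched as TGANTCA) at -143, which 6.75% of windows hold, and on the other strand a TCF/LEF motif at -30. None of the 3 windows held the T-box motif GGTGTGA, which 3.33% of windows hold, or the GAS motif TTCNNNGAA, which 7.02% hold. The motif searched for GATA factors was AGATAA, held by 9.99% of windows, and that for KLF factors was CCACCC, held by 28.1%, and neither was found in these 3 windows. These matches describe the letters alone.

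A test of the replicate number, with the group in the same edgeR fit, called 3 of the 9 receptors, against 3.63% of all tested genes. These were Cxcr6, Cx3cr1 and Cxcr5. The test was a joint one, of any difference among numbers 1, 2 and 3. Adjusted p-values given here are from that joint test. The log2 differences of number 1 printed beside them were not tested on their own. For Cxcr6 the libraries numbered 1 differed from the mean of those numbered 2 and 3 by -2.25 on the log2 scale (joint test, adjusted p 0.00111). For Cx3cr1 the same difference was -3.78 (edgeR adjusted p 0.0333). Cxcr5 differed the other way, by 2.10 (edgeR adjusted p 0.0427), in a fit that also held its difference between the groups. This value averages unequal shifts. Library 1 had 11.8 CPM against 1.33 and 0.902 CPM in CD25-high cells, and 67.9 CPM against 30.1 and 44.0 CPM in CD25-low cells.

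The other 6 receptors did not pass this joint test, whose adjusted p is given beside each value. For Ccr2 the log2 difference between libraries numbered 1 and the others was -1.28 (edgeR adjusted p 0.0672), and for Cxcr3 it was -0.56 (adjusted p 0.342). Ccr7 and Ccr4 had values of 1.80 and 1.65 (adjusted p 0.426 and 0.307), and CD25-high library 1 was the highest of the 6 libraries for each of them. Cxcr4 had a value of -0.10 (adjusted p 0.902), and Ccr8, at 0.32 (adjusted p 0.338), rested on few reads. Its larger difference, of 3.31 on the log2 scale, was that of number 3 over number 2.

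**Figure D3:**
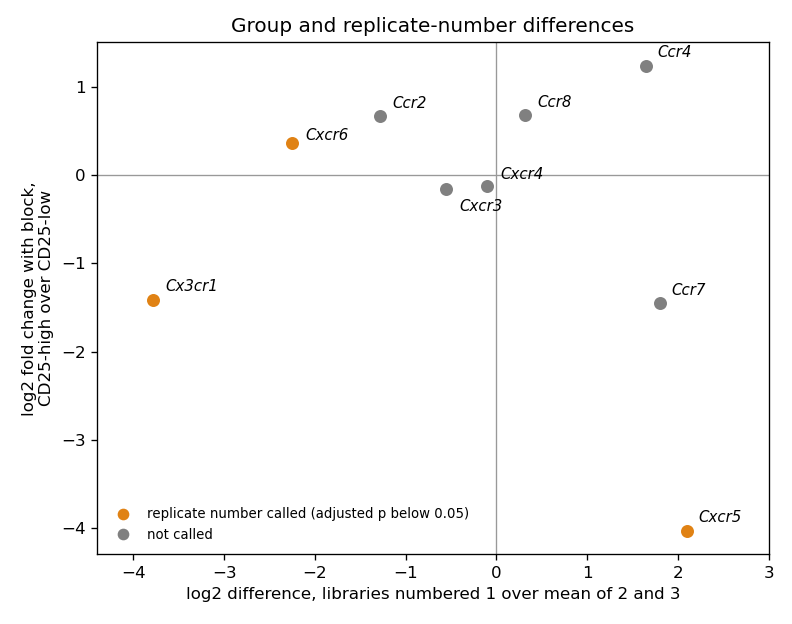
Difference between libraries numbered 1 and the mean of those numbered 2 and 3 (horizontal axis, log2) against the log2 fold change of CD25-high over CD25-low with the block (vertical axis), 1 point per receptor, orange where the replicate number passed an adjusted p of 0.05. Cxcr5 sits lowest and right of 0, Cx3cr1 and Cxcr6 furthest left, and Cxcr4 close to both zero lines.

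Cxcr6 and Ccr2 belong to a cluster of receptor genes on chromosome 9, which also holds Ccr9, Xcr1 and Ccr3. Ccr9, which encodes the receptor for CCL25 used in gut homing, had 3.68, 9.96 and 8.12 CPM in libraries 1, 2 and 3 of CD25-high cells, against 1.75, 6.39 and 6.37 CPM in libraries 1, 2 and 3 of CD25-low cells. In Ccr9, as in Cxcr6, each library numbered 1 was the lowest of its group and the CD25-high library was the higher one within every number. Ccr9 did not pass the replicate-number test in edgeR (adjusted p 0.146), and Xcr1, with 0.737, 4.63 and 1.13 CPM in CD25-high, against 0.383, 1.62 and 1.28 CPM in CD25-low libraries, did not pass it either (adjusted p 0.301).

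Cxcr6 lies inside Fyco1, on the other strand and with 0 exonic bases in common. Fyco1 had 65.2, 70.3 and 51.5 CPM in CD25-high, against 46.4, 65.1 and 38.6 CPM in CD25-low libraries. It did not have the low level of Cxcr6 in the libraries numbered 1. Of the 50-base words in Ccr2 transcripts 1.91% also occur in another gene, so a small share of reads could be placed elsewhere. Ccr8 and Cx3cr1, which are neighbours 22235 bases apart elsewhere on chromosome 9, differed in their order of libraries, and CD25-low library 2 had 0.0426 CPM of Ccr8 and 8.13 CPM of Cx3cr1.

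**Figure D4:**
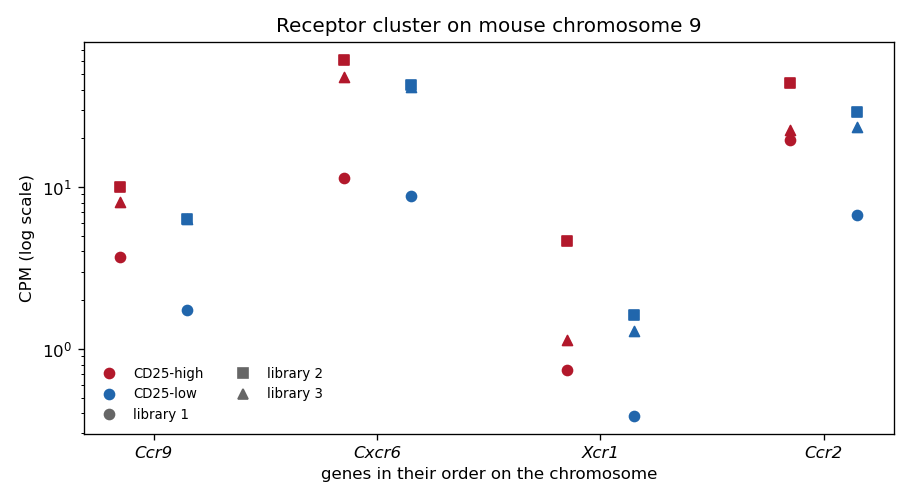
Levels in CPM (vertical axis, log scale) of 4 genes of the chromosome 9 receptor cluster in their order on the chromosome, without distances; CD25-high libraries are red and left, CD25-low libraries blue and right, and circles, squares and triangles are libraries 1, 2 and 3. The circle is the lowest point of each group in all 4 genes.

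Divided by exonic length, the receptors could be ordered within each group. In CD25-high cells Cxcr3 led at 53.4 ± 20.1 CPM per kb (SD, n = 3), followed by Cxcr6 at 20.8, Cxcr4 at 12.7, Ccr7 at 6.01, Ccr2 at 4.23, Ccr4 at 3.41, Cxcr5 at 1.41, Ccr8 at 0.873 and Cx3cr1 at 0.327 CPM per kb. The ranges of all neighbours in that order overlapped over the 3 libraries. Within each CD25-high library Cxcr3 was above Cxcr6, with 52.4, 111 and 114 CPM against 11.4, 60.8 and 48.2 CPM (exonic lengths 1731 and 1931 bases). In CD25-low cells Cxcr3 led at 56.9 ± 6.95 CPM per kb (SD, n = 3), clear of Cxcr6 at 16.1, Cxcr5 at 14.2 and Cxcr4 at 13.6, which overlapped. Ccr7 followed at 7.83, clear of Cxcr4 and of Ccr2, at 2.93, but overlapping Cxcr6 and Cxcr5 over the libraries, and Ccr8 at 1.11, Ccr4 at 0.971 and Cx3cr1 at 0.822 CPM per kb overlapped. The mean level of Cxcr5 was thus number 7 of the 9 receptors in CD25-high cells and number 3 in CD25-low cells, with the first place of Cxcr3 common to both.

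Ratios of a pair of receptors within a library do not depend on library size, and 4 were compared. The log2 ratio of Cxcr5 to Ccr7, follicle against T cell zone, was -1.36, -1.34 and -1.02 in libraries 1, 2 and 3 of CD25-high cells, against 2.84, 0.86 and 1.11 in libraries 1, 2 and 3 of CD25-low cells. Reads of Ccr7 thus outnumbered those of Cxcr5 in every CD25-high library, and the reverse held in every CD25-low library. The mean difference was -2.84, and CD25-high library 1, which was high for each of the 2 genes, had a ratio close to those of the other CD25-high libraries. A two-sided exact permutation test gave p = 0.1, which is the smallest value that 3 against 3 libraries allow (0.2 adjusted over the 4 ratios).

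The log2 ratio of Cxcr5 to Cxcr3 was -2.14, -6.35 and -6.94 in libraries 1, 2 and 3 of CD25-high cells, against -0.48, -1.56 and -1.34 in libraries 1, 2 and 3 of CD25-low cells. These groups did not overlap either (difference -4.02, two-sided exact permutation p = 0.1, adjusted 0.2). The log2 ratio of Cxcr5 to Cxcr6 was 0.06, -5.49 and -5.70 in CD25-high libraries, against 2.93, -0.50 and 0.08 in CD25-low libraries. The groups overlapped, since CD25-high library 1 lay above CD25-low library 2 (difference -4.55, exact p = 0.2, adjusted 0.267). The ratio of Cxcr4 to Ccr7 overlapped as well, with -0.45, 2.47 and 3.87 in CD25-high and 1.28, 0.69 and 0.24 in CD25-low libraries (difference 1.23, exact p = 0.4, adjusted 0.4).

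**Figure D5:**
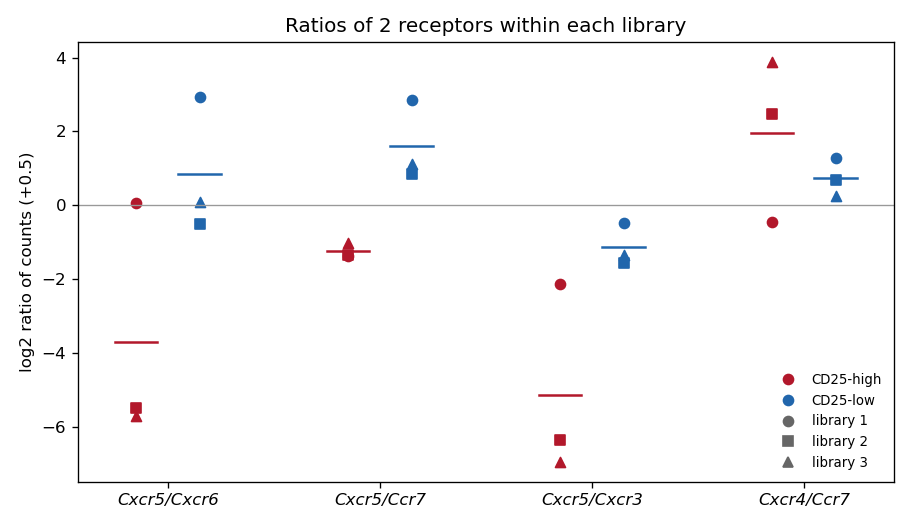
Log2 ratio of the reads of 2 receptors within each library (vertical axis, 0.5 added to each count) for 4 pairs; red, left, is CD25-high and blue, right, CD25-low, circles, squares and triangles are libraries 1, 2 and 3, and bars are group means. The 3 CD25-high points of Cxcr5/Ccr7 lie together below 0 and the 3 CD25-low points above it.

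Among 16 further receptors, 12 had a row and 7 were tested, with a median log2 fold change of 0.05. Of these 0 were called in either fit, against 0.655% of all tested genes without and 4.63% with the block. The 7 tested receptors include Gpr183 and S1pr1, positioning receptors that bind lipids and not chemokines. Gpr183, the oxysterol receptor that guides cells to the edge of the follicle, had 20.0, 37.0 and 28.4 CPM in CD25-high, against 66.4, 36.1 and 40.0 CPM in CD25-low libraries (log2 fold change -0.74 ± 0.31, SE; edgeR adjusted p 0.417). Ccr6, the receptor for CCL20, had 0.737, 0 and 0.113 CPM in CD25-high, against 1.20, 0.724 and 2.98 CPM in CD25-low libraries (-2.51 ± 1.16, SE; edgeR adjusted p 0.46). The groups overlapped in both genes. The blocked edgeR fit called Gpr183 without the libraries numbered 2 (-1.12, adjusted p 0.0257) but not without number 1 (-0.23, adjusted p 0.641) or number 3 (-0.84, adjusted p 0.189). Xcr1, of the chromosome 9 cluster, had a log2 fold change of 0.97 ± 0.85 (SE; edgeR adjusted p 0.74).

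Of 28 chemokine ligand genes 10 had a row and 6 were tested. Without the block 0 were called, against 0.655% of all tested genes. With it 1 was higher and 1 lower, against 4.63% of all genes called. Ccl3, an inflammatory chemokine that activated T cells can secrete, had 4.93, 5.38 and 11.7 CPM in CD25-high, against 0.438, 1.23 and 2.48 CPM in CD25-low libraries. The groups did not overlap, and Ccl3 rose by 2.55 on the log2 scale with the block (edgeR adjusted p 0.00959; 2.39 ± 0.66, SE, and 0.184 without it). Ccl4, a chemokine gene next to Ccl3, had 0.624, 1.38 and 1.69 CPM in CD25-high, against 0, 0.298 and 0.165 CPM in CD25-low libraries. It was not called (edgeR adjusted p 0.318).

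Cxcl10, a ligand of CXCR3, had 43.1, 0.958 and 1.47 CPM in CD25-high, against 66.6, 13.8 and 12.5 CPM in CD25-low libraries. Both libraries numbered 1 were high, and within each number the CD25-high library was the lower one. Cxcl10 fell by 2.35 ± 0.49 (SE) on the log2 scale with the block (edgeR adjusted p 0.015), whereas the fit without it gave -1.03 ± 1.16 (SE; adjusted p 0.812). The replicate-number test called it too (edgeR adjusted p 0.00309). Ccl25, the ligand of CCR9, had a log2 fold change of -0.56 ± 0.47 (SE; edgeR adjusted p 0.721).

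Of 36 genes for signalling and desensitisation downstream of these receptors 35 were tested. Without the block 1 was higher and 0 lower, where 0.655% of all tested genes were called. With the block 3 were higher and 1 lower, against 4.63% of all genes called, and the median log2 fold change without the block was 0.03. Gnai1, an inhibitory G protein alpha subunit through which chemokine receptors signal, had 60, 41 and 102 reads in CD25-high, against 0, 0 and 2 reads in CD25-low libraries. Its 203 reads in CD25-high against 2 in CD25-low are a ratio of 124 after scaling (95% interval 33.8 to 1030, counting error only), and it rose at an edgeR adjusted p of 0.0225. Leaving out CD25-high library 3 or any 1 CD25-low library ended that call (adjusted p 0.0627 to 0.158).

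With the block, Rasgrp2, an activator of Rap1 in integrin adhesion, rose by 1.30 (edgeR adjusted p 0.00122), and Pik3r5, the regulatory subunit of the G protein-driven PI3-kinase gamma, rose by 1.46 (adjusted p 0.00797). Pik3r5 had 88.6, 143 and 106 CPM in CD25-high, against 15.5, 62.6 and 63.7 CPM in CD25-low libraries, with no overlap. Gng2, a G protein gamma subunit, fell by 0.78 (edgeR adjusted p 0.0287), with 29.1, 68.6 and 59.6 CPM in CD25-high, against 63.0, 105 and 91.9 CPM in CD25-low libraries. Leaving out the libraries of any 1 number ended the blocked call of Gng2 (edgeR adjusted p 0.0551 to 0.0816) and left those of Rasgrp2 and Pik3r5 in place. None of these 3 was called without the block (edgeR adjusted p 0.33 for Rasgrp2, 0.323 for Pik3r5 and 0.443 for Gng2).

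Among 6890 genes with a mean of at least 10 CPM, the profile over the 6 libraries most like that of Cxcr5 was Tcf7, at a root mean square distance of 0.319 on the log2 scale, followed by Tnfsf8 at 0.396. Tcf7, a transcription factor of naive and follicular helper T cells, had 173, 32.2 and 21.6 CPM in CD25-high, against 879, 736 and 947 CPM in CD25-low libraries. Picked for its likeness to Cxcr5, it shared the higher level in CD25-high library 1 than in CD25-high libraries 2 and 3. Tnfsf8, which encodes CD30 ligand, had 33.2, 3.83 and 2.71 CPM in CD25-high, against 213, 157 and 155 CPM in CD25-low libraries.

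For Cxcr6 the nearest profile was S100a10, at a distance of 0.122, with 30.0, 157 and 137 CPM in CD25-high, against 28.2, 125 and 136 CPM in CD25-low libraries, followed by Cacna1i at 0.166. For Ccr2 it was Eif4e3 at 0.118, followed at 0.196 by Itga4, the alpha 4 integrin gene. Itga4 had 1620, 2960 and 1870 CPM in CD25-high, against 588, 1750 and 1500 CPM in CD25-low libraries, low in both libraries numbered 1. Cxcr4 was nearest to Vav1 (0.0365) and Dpp8 (0.0623), and Cxcr3 to Skiv2l (0.0658) and Abhd16a (0.075).

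The other 4 receptors had nearest profiles at distances of 0.39 to 0.667. These were Dpy19l3 (0.576) and Bcl2 (0.667) for Ccr7, Gpatch4 (0.631) and Gsdme (0.636) for Ccr4, Ifrd2 (0.39) and Shmt2 (0.468) for Ccr8, and Gucd1 (0.393) and Otulinl (0.462) for Cx3cr1. Bcl2, the survival gene, had 94.1, 42.8 and 30.9 CPM in CD25-high, against 73.7, 137 and 158 CPM in CD25-low libraries, so that, as for Ccr7, CD25-high library 1 was apart from the other CD25-high libraries and CD25-low library 1 was the lowest of its group. The root mean square spread of a receptor around its own mean was 0.176 for Cxcr4, 0.388 for Cxcr3, 0.801 for Ccr2, 1.05 for Cxcr6 and 2.19 for Cxcr5. It was 0.855 to 1.33 for these 4 receptors. Distances are therefore not comparable between receptors, since a gene that varies little lies near any other such gene. With 6 points that share library depth and number, these distances are descriptions. Patterns that a named gene shares with its receptor follow from how the gene was picked.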

How the data were processed

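Per the labels' protocols, libraries came from total RNA by the Ovation RNA-Seq System v2 of NuGEN. The deposited table holds raw counts of reads per Ensembl gene. The submitters' processing notes name Novoalign, DESeq2, mm10 and hg19 without roles; how reads were counted, with which annotation and strand setting, is not given in the sources used here. In these counts 10 is the smallest row total, and 276 of 15445 identifiers had no name in GENCODE M21 (GRCm38, the assembly of mm10), which gave names, exonic lengths and coordinates. Mitochondrial ribosomal RNA took 29.262% to 35.326% of counts.

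edgeR 4.0.16 (R 4.3.3; quasi-likelihood, TMM, filterByExpr with minimum count 10, group as the term) was fitted on all genes, with Benjamini-Hochberg adjustment over 12987 genes and calls at 0.05; SEs are approximate. Over the 2000 most variable genes, deviations of same-numbered libraries correlated at 0.47, 0.31 and 0.24, above the limit of 0.1, and differently numbered ones at -0.38 to 0.19. The highest value for differently numbered libraries, 0.19, was above that limit too. The number was used as a block in a further fit, on the evidence of the counts and not of a label. The main fit and the permutation tests left it out. The test of the number itself was added after seeing that number 1 stood apart.

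Alternatives were DESeq2 1.42.0, limma voom (3.58.1), other scalings and filters, the block, and each library left out. The fits were also run on simulated counts, with an outcome that is not given here. Their number differences were the same in both groups, so they do not cover differences like those of Ccr7, Ccr4 and Cxcr5. The receptors, gene lists and markers were chosen with earlier results of these data known. Named list genes are those called, otherwise the 3 with the smallest p, and those called with the block alone. Intervals of reads cover counting error only. Word matching used exonic sequence of GENCODE transcripts. The values of 1 gene on these lists are not reported here.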

Additional observations from a re-analysis of the deposited data

How the results depend on the processing

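Genes called numbered 601 with the replicate block and 461, 486 and 536 with it when the libraries numbered 1, 2 or 3 were left out, 376 in DESeq2, and 22 to 130 with 1 library left out, against 85. Receptors called numbered 1 with the block, 2, 2 and 1 without the libraries numbered 1, 2 or 3, 1 in limma voom, and 0 to 2 with 1 library left out. Cxcr5 kept its direction under all 18 alternatives and was called under 6 of them: -4.03 with the block, -5.02, -3.83 and -3.38 with it and without number 1, 2 or 3, -4.18 in limma voom, and without CD25-high library 1 (range with 1 library left out -5.39 to -2.83). No other scaling or filter tried changed a receptor's call. The block over all 6 libraries changed no other receptor's call.

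With 1 library left out Ccr7 ranged from -2.55 to 0.15, Cxcr3 from -0.27 to 0.19, Cxcr4 from -0.25 to 0.02, Cxcr6 from -0.07 to 0.81, Ccr2 from 0.10 to 0.91, Ccr4 from 0.61 to 2.36, Cx3cr1 from -2.03 to -0.02 and Ccr8 from -0.93 to 1.56. With the block, Ccr7 was -2.84 and Cxcr3 0.17 without number 1, Cxcr4 was 0.06 and Ccr4 2.31 without number 2, and Ccr8 was 0.68, with 0.31 and 2.0 without number 1 or 3 and 0.90 in limma voom. With 1 library left out Xcr1 ranged from -0.23 to 1.39 and Cxcl10 from -4.67 to 0.20. The cause of these shifts was not tested. Blocked fits without a number leave 1 degree of freedom per gene, shared across genes. The 25 or fewer reads of Cxcr5 in 2 libraries, and those of Ccr8 and Cx3cr1, limit their precision.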
